A study of Mus musculus with 10 samples.

Results

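Glutathione S-transferases join the tripeptide glutathione to reactive, electron-poor compounds so that the products can be exported from the cell. In the lung they are best known from the airway epithelium, where they act on epoxides and aldehydes of tobacco smoke and on products of lipid peroxidation. The soluble enzymes fall into classes named alpha, mu, pi, theta and omega, and a separate family is built into membranes. Many of their genes are targets of NRF2, the transcription factor that answers electrophiles, and some are targets of the aryl hydrocarbon receptor, which binds smoke hydrocarbons.

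The levels of 10 transferase genes were examined in lungs of C57BL/6J mice at 2 weeks of age, with 4 control and 6 smoke lungs on 1 Affymetrix Mouse 430 2.0 array each. Control mice lived in filtered air, apart from the smoke group. Smoke mice were exposed to cigarette smoke from the age of 1 day together with the mother, for 1 h a day over 7 days and then 2 h a day over another 7 days, at an average of 90 mg/m3 of particulates. No genetic change, other agent, sex, litter or batch is named for either group. Each sample is labelled as the lung of 1 mouse, so that p-values measure the spread between these mice. The RNA came from whole lung, so a measured level reflects tissue of mixed cell types. Total RNA was primed from its poly(A) end and amplified as cRNA.

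The genes are Gsta3 and Gsta4 (alpha), Gstm1, Gstm2 and Gstm5 (mu), Gstp1 (pi), Gstt1 (theta), Gsto1 (omega), and Mgst1 and Mgst3 (membrane). They were chosen by symbol, as all probe sets whose platform annotation names one of them. This gave 17 probe sets, of which 0 name a further gene. A probe set is a group of short probes read as one value. A filter on mean level, which kept the brightest 60% of the array, retained 15 of the 17 and all 10 genes, out of 13382 genes tested and 18193 named. For a gene with several probe sets, the tested one with the highest mean stands for the gene, and the others are given beside it. Values below are normalized intensities, on a linear scale after quantile normalization of the log2 values. Differences are smoke minus control on the log2 scale, with the standard error (SE) from limma.

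The RefSeq promoter table (GRCm38.p6, from 250 bases before to 50 after each start) held 9 of the 10 genes, with 11 promoters among them. They were searched on both strands for TGACNNNGC, the core of the antioxidant response element that NRF2 binds, for TGANTCA, an AP-1-like element that overlaps many antioxidant elements, and for GCGTG, the core bound by the aryl hydrocarbon receptor. TGACNNNGC was found in Gsta3, Gstm5 and Mgst1, 3 of 9 genes and 3 of 11 promoters, and in 12.4% of all 32851 promoters. TGANTCA was found in Gstm5 and Gstp1, 2 of 9 genes and 2 of 11 promoters, and in 7.81% of all promoters. GCGTG was found in Gstm1, Gstm5, Gstp1 and Mgst3, 4 of 9 genes and 5 of 11 promoters, and in 32.4% of all promoters. In Gstm5, 1 of the GCGTG matches lies inside the TGACNNNGC match and the other overlaps the TGANTCA match. A match describes the letters of the promoter only, and binding was not measured. The windows below show the antioxidant-type matches, because NRF2 is the factor most often named for these genes, and show that of Gstp1 because it has the smallest p-value of the 10 genes. Each runs 5′ to 3′ on the gene's strand with 20 bases on either side, and capitals mark the match. They lie at chr1:21240444-21240492 (Gsta3, plus strand), chr3:107895792-107895840 (Gstm5, plus strand), chr6:138140451-138140499 (Mgst1, plus strand, with the motif on the opposite strand) and chr19:4037960-4038006 (Gstp1, minus strand). Their matches begin 121, 42, 56 and 74 bases before the start, in that order.
Gsta3: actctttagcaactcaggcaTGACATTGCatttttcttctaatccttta
Gstm5: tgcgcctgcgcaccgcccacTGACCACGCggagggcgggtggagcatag
Mgst1: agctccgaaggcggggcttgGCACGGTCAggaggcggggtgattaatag
Gstp1: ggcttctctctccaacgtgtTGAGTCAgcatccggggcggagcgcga

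Several of the genes sit beside close relatives in the same RefSeq annotation. Gstm5, Gstm2 and Gstm1 belong to a row of mu genes in the order Gstm5, Gstm7, Gstm6, Gstm3, Gstm2, Gstm1 and Gstm4. Gstp1 adjoins Gstp2 and Gstp3, Gstt1 lies between Gstt3 and Gstt4, and Gsto1 adjoins Gsto2. Gstp2 is nearly identical to Gstp1 and no probe set names it, so the signal of the Gstp1 probe set may hold both. The probe sets of Gstm1 and Gsto1 whose names end in x_at are by design open to related transcripts, so these values are uncertain as to the gene.

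The arrays differed in ways that the exposure does not describe. The part of these differences in the results below was not tested. The ratio of 3′ to 5′ beta-actin signal, a sign of how much of a transcript was copied, was 3.96 to 10.4 in control lungs and 2.18 to 31.6 in smoke lungs. It was 3.96 on control 4, 2.18 on smoke 5 and 2.98 on smoke 6, the 3 lowest, and 31.6 on smoke 1 and 29.4 on smoke 2, the highest. The same ratio for Gapdh was 4.82 to 5.89 in control lungs. It was lowest on smoke 5 (1.40) and smoke 6 (2.13) and highest on smoke 2 (9.16). On smoke 1 it was 4.76, under all controls, so the actin and Gapdh ratios disagree on that array. Xist, the RNA that coats the inactive X chromosome of females, was at 13.96 to 14.09 (log2) on control 2, control 4, smoke 5 and smoke 6 and at 8.25 to 9.38 on the others. The median log2 intensity as deposited ran from 7.01 to 7.70, and the correlation between arrays over all tested probe sets from 0.75 to 0.97.

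None of the 10 transferases passed an adjusted p of 0.05. Of all genes tested, 97 did, or 0.725%, so a count of 0 among 10 genes is near the background. At an unadjusted p under 0.05, Gstp1 was the 1 gene on the higher side, where 5.75% of all genes lay, and 0 were on the lower side, where 4.47% lay. The difference was positive for 6 genes and negative for 4, with a median of 0.14 and a range of -0.39 to 0.49, beside a median of 0.06 over all genes. Of the 13382 genes tested, 7617 were positive and 5765 negative. Adjusted p ran from 0.414 to 0.995 over the 10 genes. In none of them did all smoke lungs lie above, or all below, all control lungs, as was the case for 4.09% of all genes.

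**Figure D1:**
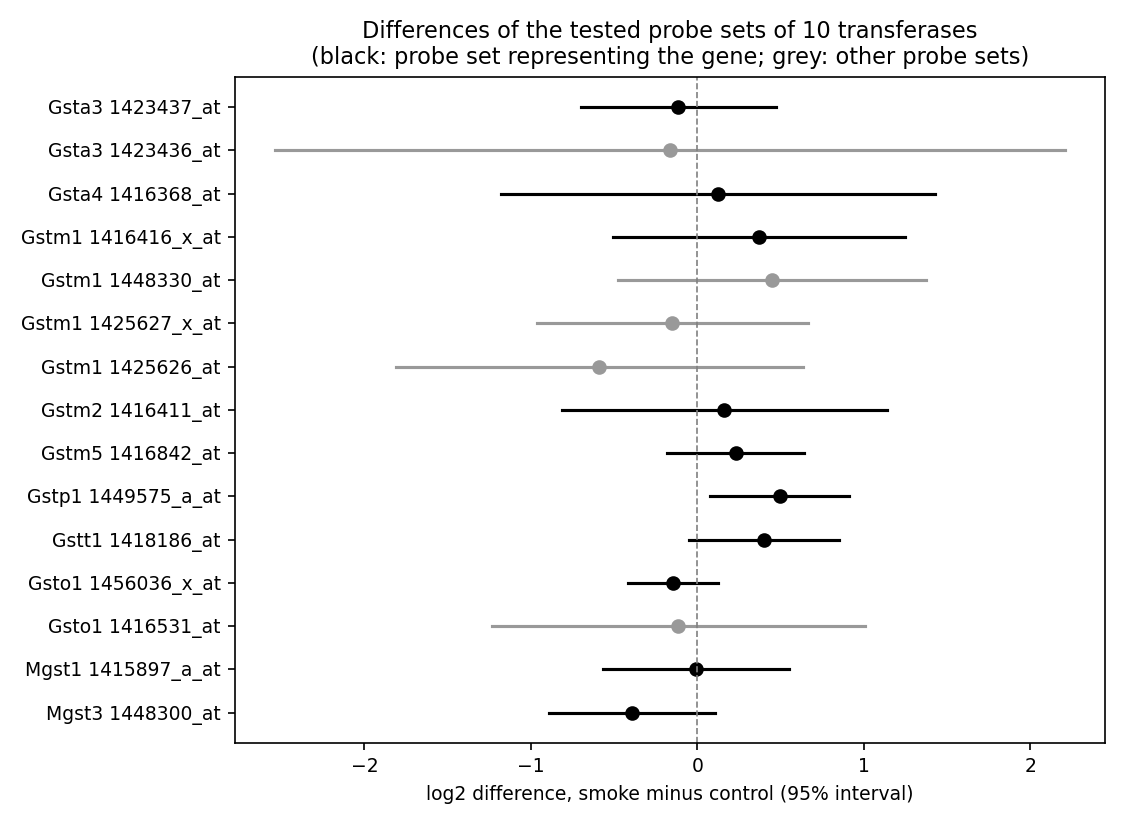
Smoke minus control difference in log2 units for each of the 15 tested probe sets of the 10 transferase genes, with the 95% confidence interval from limma. The interval of the single Gstp1 probe set lies wholly above 0, and those of Gsta4 and of the second Gsta3 probe set are the widest.

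The pi-class enzyme Gstp1 acts on epoxides of polycyclic hydrocarbons and on small unsaturated aldehydes, and is a major transferase of the lung. Its normalized intensity was 3662, 3128, 3140 and 5487 in control lungs 1 to 4, and 5558, 4406, 4668, 4673, 6825 and 5956 in smoke lungs 1 to 6. Control 4 lay above 3 smoke lungs, and the other controls lay below all 6. The means were 11.87 ± 0.38 (SD, n = 4) and 12.37 ± 0.25 (SD, n = 6) on the log2 scale, a difference of 0.49 ± 0.19 (SE) with a 95% interval of 0.08 to 0.91. This is 1.41 times the control level, with an interval of 1.06 to 1.88. The exact two-sided permutation test over the 210 assignments of lungs gave p = 0.0381, where 0.00952 is the smallest possible. After Benjamini-Hochberg adjustment in limma over 27022 probe sets the p was 0.414, so Gstp1 did not pass the threshold. Leaving out control 4 raised the difference to 0.68, and leaving out control 2 lowered it to 0.41.

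Gstt1, of the theta class, acts on small halogenated compounds. It read 3616, 2730, 2745 and 2797 in control lungs 1 to 4, against 5405, 4847, 4378, 3711, 2995 and 2738 in smoke lungs 1 to 6. Smoke lungs 1 to 4 lay above every control, whereas smoke 5 and smoke 6 lay within the control range. The difference was 0.40 ± 0.21 (SE), a fold of 1.32, with an interval of -0.05 to 0.85 on the log2 scale. Its exact permutation p was 0.0762 and its adjusted p 0.54. Without smoke 5 and 6 together the difference was 0.62 with an adjusted p of 0.0542, and without smoke 1 and 2 it was 0.20. Smoke 5 and 6, the 2 lowest smoke lungs for Gstt1, were the 2 highest for Gstp1 after normalization. Smoke 1, the highest for Gstt1, also lay above every control for Gstp1. Over the 10 lungs the 2 genes correlated at r = 0.14. As deposited, smoke 5 (5877.5) and smoke 1 (5665.6) were the 2 highest for Gstp1.

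**Figure D2:**
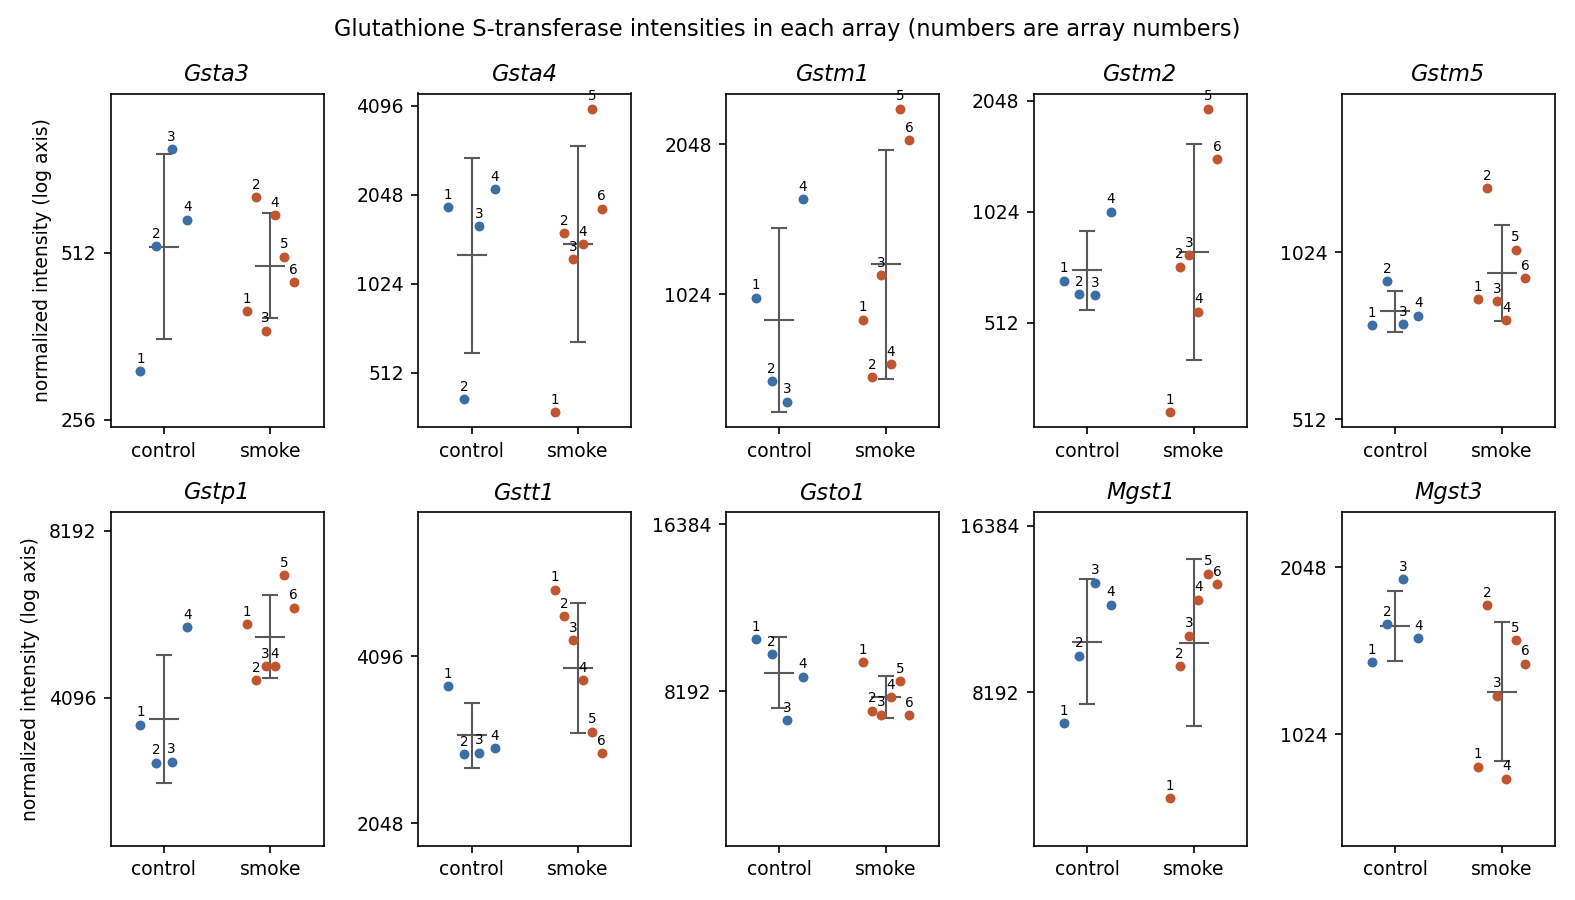
Normalized intensity on a log2 axis of the representative probe set of each of the 10 transferase genes, with 1 numbered point per lung in the control (n = 4) and smoke (n = 6) groups and bars for the mean ± SD of log2 values. Smoke 5 and 6 are the highest points for Gstm1, Gstm2 and Gstp1, and Gstt1 shows smoke lungs 1 to 4 above all controls.

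The mu class gave positive but small differences for all 3 genes. Gstm1, which conjugates aromatic epoxides, read 1009, 687, 624 and 1590 in control lungs 1 to 4 and 911, 698, 1118, 742, 2416 and 2087 in smoke lungs 1 to 6. Only smoke 5 and smoke 6 exceeded all controls, and the difference of 0.37 ± 0.40 (SE; interval -0.50 to 1.24; adjusted p = 0.78) was smaller than its error. Gstm2, another mu enzyme of the same row of genes, read 666, 611, 609 and 1025 in control lungs and 293, 726, 781, 549, 1951 and 1420 in smoke lungs. Here smoke 1 was the lowest array and smoke 5 the highest, a span of 6.66-fold, and the difference was 0.16 ± 0.45 (SE; adjusted p = 0.92). Gstm5 varied little, with 757 to 909 in control lungs and 773 to 1336 in smoke lungs. Smoke 2 was its highest array, and the difference was 0.23 ± 0.19 (SE; interval -0.18 to 0.64; adjusted p = 0.70).

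Gstm1 had 4 tested probe sets, and their signs disagreed over the 10 lungs. Besides the one above, probe set 1448330_at gave 0.45 ± 0.42 (SE), with 470 to 933 in control lungs and 2213 and 1534 on smoke 5 and 6. Probe set 1425627_x_at gave -0.15 ± 0.37 and 1425626_at gave -0.59 ± 0.56. The last read 141 to 288 in control lungs, and in smoke lungs it read 44 on smoke 2 and 52 on smoke 4 but 216 to 269 on the other 4. Adjusted p was 0.74 to 0.91 for these 3. Without smoke 5 and 6 all 4 were negative (-0.10 for the representative, then -0.09, -0.63 and -0.94 in the order above), and without smoke 1 and 2 the third, 1425627_x_at, was positive (0.17). The disagreement between the probe sets itself was not tested.

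The alpha class holds enzymes for products of lipid peroxidation and for epoxides. Gsta4, which conjugates 4-hydroxynonenal, an aldehyde from oxidised lipids, read 1861, 416, 1602 and 2143 in control lungs 1 to 4 and 377, 1520, 1238, 1393, 4006 and 1837 in smoke lungs 1 to 6. Control 2 and smoke 1 were low by themselves and smoke 5 high by itself, a span of 10.6-fold within 10 lungs. The difference of 0.12 ± 0.60 (SE; interval -1.18 to 1.43; adjusted p = 0.96) has no settled sign. Gsta3, whose mouse enzyme is known for acting on the epoxide of aflatoxin, read 313, 527, 788 and 588 in control lungs and 402, 645, 371, 599, 504 and 454 in smoke lungs. All smoke lungs fell inside the control range, and the difference was -0.11 ± 0.27 (SE; interval -0.70 to 0.47; adjusted p = 0.90).

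The second probe set of Gsta3, 1423436_at, behaved otherwise. It read 148, 156, 770 and 849 in control lungs and 16, 276, 353, 364, 1335 and 1263 in smoke lungs. Smoke 1 lay at the floor of 15.8 that was set for dim values, so the span of 84.7-fold from lowest to highest is set by that floor and is a lower bound. Its spread within groups exceeded that of 99.9% of tested probe sets, and its difference was -0.16 ± 1.09 (SE; interval -2.54 to 2.21). It was -0.43 with no floor and 0.12 with a floor at the 25th percentile, so neither a large rise nor a large fall can be told from none with it.

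Gsto1, the omega-class enzyme, reduces dehydroascorbate and protein thiols more than it conjugates. Its representative probe set, 1456036_x_at, read 10163, 9554, 7252 and 8697 in control lungs and 9231, 7558, 7428, 7978, 8547 and 7417 in smoke lungs. The lungs spanned only 1.40-fold after normalization. The spread within groups (SD) was lower than that of all but 3.25% of tested probe sets. As deposited, the values ran wider, from 6391.4 on smoke 6 to 11721.4 on smoke 1. The difference was -0.15 ± 0.12 (SE; interval -0.42 to 0.13; adjusted p = 0.71). Its other probe set, 1416531_at, read 4682, 1583, 3210 and 5182 in control lungs and 1083, 1940, 3204, 2868, 8094 and 5462 in smoke lungs. That is a 7.47-fold span for the same named gene, with smoke 1 lowest and smoke 5 highest, and a difference of -0.11 ± 0.51 (SE; adjusted p = 0.96).

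The membrane-bound enzymes have a fold of their own and also reduce lipid peroxides. Mgst1, found in the endoplasmic reticulum and the outer mitochondrial membrane, read 7207, 9546, 12918 and 11792 in control lungs and 5276, 9133, 10368, 12049, 13420 and 12854 in smoke lungs. As normalized, smoke 1 was lowest and smoke 5 highest, and the difference was -0.01 ± 0.26 (SE; interval -0.57 to 0.55; adjusted p = 0.995). As deposited, smoke 1 was also lowest, but control 3 (12973.8) was highest and smoke 5 read 10340.3. Mgst3, which can also conjugate leukotriene A4, read 1380, 1616, 1951 and 1527 in control lungs and 895, 1749, 1201, 851, 1514 and 1373 in smoke lungs. Here 4 of 6 smoke lungs lay below all controls, and the difference of -0.39 ± 0.23 (SE; interval -0.89 to 0.10; adjusted p = 0.58) was the lowest of the 10 genes. The 2 probe sets under the filter belong to Mgst1 (16 to 74 over the lungs, exact permutation p = 0.66) and Mgst3 (27 to 180, exact permutation p = 0.97).

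The same few lungs stood at the ends of many of these series. Control 4, smoke 5 and smoke 6 were the 3 highest arrays for 6 of the 15 probe sets, beside 5.66% of all tested probe sets. Smoke 1 was the lowest array for 6 of 15, beside 22.2% of all. Several of these probe sets belong to 1 gene, Gstm1. By gene, the first pattern held for 2 of 10 transferases, beside 804 of 13382 genes tested. The second held for 3 of 10, beside 2970 of 13382. Control 4, smoke 5 and smoke 6 had the lowest beta-actin 3′ to 5′ ratios and are 3 of the 4 with high Xist. Smoke 1 had the highest actin ratio, though not the highest Gapdh ratio. Control 2, which has high Xist and an actin ratio of 10.4, was low for Gsta4 (416) and for Gsto1 by 1416531_at (1583). The part of the actin ratio and of sex in this pattern was not tested.

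**Figure D3:**
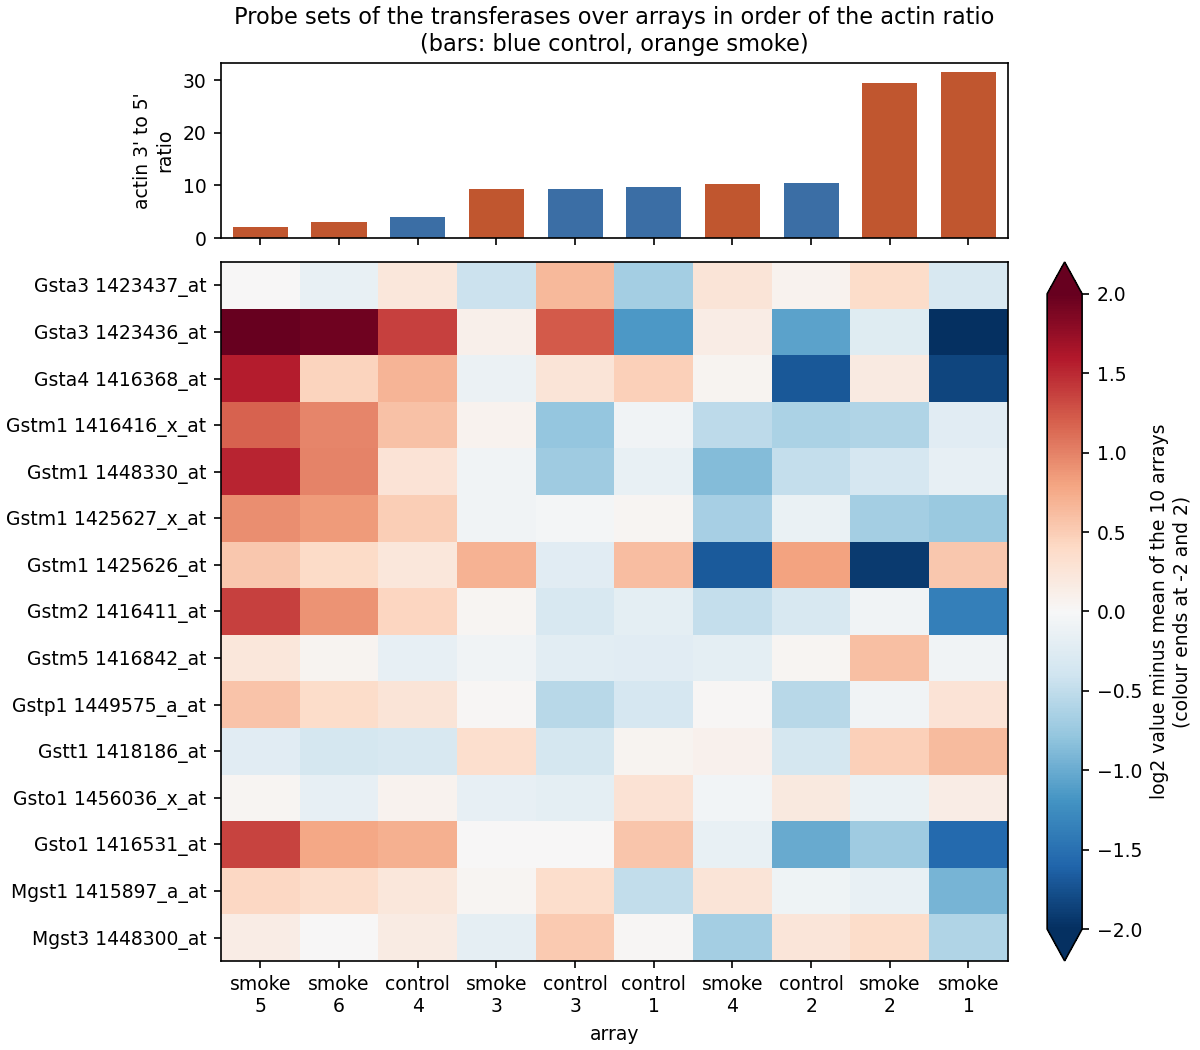
Each of the 15 tested probe sets as its log2 deviation from its own mean over the 10 lungs (colour), set out by array together with each array's beta-actin 3′ to 5′ ratio. Smoke 1 (ratio 31.6) is low and control 4, smoke 5 and smoke 6 (3.96, 2.18 and 2.98) are high for many, though not for Gstt1.

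Adding each array's actin ratio (log2) to the fit gave smaller errors for all 15 tested probe sets. The change was small for some, from 0.27 to 0.26 for the representative Gsta3 probe set. How often errors fell over all tested probe sets was not counted. The SE of Gsto1 by 1416531_at went from 0.51 to 0.25, that of Gstm2 from 0.45 to 0.23 and that of the representative Gstm1 probe set from 0.40 to 0.22. The differences were then 0.03, 0.28 and 0.48, and none passed (adjusted p 0.97, 0.58 and 0.30). Under this covariate Gstp1 differed by 0.53 (adjusted p = 0.0882) and Gstt1 by 0.35 (adjusted p = 0.17). With Xist as the covariate Gstp1 differed by 0.54 (adjusted p = 0.30). Without smoke 5 and 6, the difference of Gsta4 was -0.36, that of Gstm1 -0.10 and that of Gstm2 -0.37. Their signs thus depend on which lungs are used, and that of Gsta4 also turned without control 2 (-0.41).

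Over the 10 lungs the levels of some transferases ran together. Gstm1 correlated with Gstp1 at r = 0.81 and with Gstm2 at 0.79, and Gsta4 correlated with Gstm2 at 0.80. Gstt1 ran against Mgst1 at r = -0.71 and against Gstm2 at -0.57. All these pairs share the same 10 arrays with their differences in actin ratio, so the values are a description. The 3 genes whose profile was most like that of Gstp1 were Cuta (r = 0.98, rho = 0.98), Eps8l1 (0.95 and 0.89) and Suds3 (0.94 and 0.90), each over 10 lungs.

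Of 21 other transferases and related membrane proteins listed, 18 were named on the array and 12 tested. None passed an adjusted p of 0.05, and the median difference was -0.05. Before adjustment, p was under 0.05 for 1 gene on the higher side and 0 on the lower, beside 5.75% and 4.47% of all genes. Ptges, the inducible prostaglandin E synthase of the membrane family, read 41 to 153 in control lungs and 70 to 276 in smoke lungs. The difference was 1.33 ± 0.46 (SE; adjusted p = 0.37), with 5 of 6 smoke lungs above all controls. In control lungs its mean log2 level was below that of the Mgst3 probe set under the filter. Ptges was thus tested only because of its higher smoke lungs, which limits what its p-value can show. Gsta2, an inducible alpha-class enzyme, read 635 to 702 in control lungs and 549 to 1595 in smoke lungs, with smoke 1 and smoke 2 highest (0.45 ± 0.28; adjusted p = 0.61). Gstm4, the last of the mu row, gave 0.37 ± 0.35 (adjusted p = 0.75). Alox5ap, which serves leukotriene synthesis, gave -0.28 ± 0.21 (adjusted p = 0.66).

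The genes that make, recycle, use and export glutathione were listed as 32 genes, of which 25 were tested. None passed the adjusted threshold, and the median was 0.14. Before adjustment, p was under 0.05 for 2 genes on the higher side and 0 on the lower, beside 5.75% and 4.47% of all genes. Both were named for their small p, and both separated the groups fully, as did 4.09% of all genes in either direction. Glrx5, a mitochondrial glutaredoxin for iron-sulphur clusters, read 2503 to 3036 in control lungs and 3860 to 5537 in smoke lungs (0.63 ± 0.14 SE; adjusted p = 0.0888). Abcc1, a pump that exports glutathione conjugates, read 638 to 869 in control lungs and 1040 to 1443 in smoke lungs (0.67 ± 0.17; adjusted p = 0.16). Gss, the second enzyme of glutathione synthesis, gave 0.69 ± 0.38 (adjusted p = 0.56) with 2126 and 1924 on smoke 1 and 2 but 543 and 590 on smoke 5 and 6. Lap3, a peptidase that can split cysteinylglycine, gave -0.69 ± 0.32 (adjusted p = 0.50). Gclm, the regulatory subunit of the first enzyme of glutathione synthesis, was chosen after its values were seen, as the lowest difference of the list (-1.33 ± 0.76 SE; adjusted p = 0.57). It read 710 to 881 in control lungs and 28 to 723 in smoke lungs, lowest on smoke 1 (28) and smoke 2 (239).

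Of 23 genes listed for the NRF2 response, 20 were tested. None passed, and the median was 0.04. Unadjusted p was under 0.05 for 2 genes on the higher side and 0 on the lower, beside 5.75% and 4.47% of all genes. Nqo1, a quinone reductase, read 125 to 153 in control lungs and 210 to 347 in smoke lungs (0.94 ± 0.21 SE; adjusted p = 0.10), all 6 above all controls. Aox1, an aldehyde oxidase, also had all 6 smoke lungs above all controls (0.50 ± 0.22; adjusted p = 0.49). Such full separation, in either direction, held for 4.09% of all genes. Keap1 and Cul3, which mark NRF2 for degradation, gave -0.61 ± 0.30 and -0.46 ± 0.23, each with an adjusted p of 0.52.

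Of 12 genes listed for the aryl hydrocarbon receptor, 9 were tested, with a median of 0.51. The difference was positive for 8 of 9, beside 7617 of 13382 genes tested. Unadjusted p was under 0.05 for 4 of them on the higher side and 0 on the lower, beside 5.75% and 4.47% of all genes. Cyp1b1, a cytochrome P450 that oxidises smoke hydrocarbons, passed the adjusted threshold: it read 115 to 313 in control lungs and 449 to 1479 in smoke lungs, a rise of 2.18 ± 0.39 (SE; adjusted p = 0.0261). The count of 1 became 0 when control 1, control 2, control 3, smoke 3 or smoke 4 was left out, and 2 without smoke 6. Cyp1a1, the best known target, gave 1.52 ± 0.36 (adjusted p = 0.13), with 5 of 6 smoke lungs above all controls. Nqo1, counted in this list too, and Cyp2s1 (0.51 ± 0.22; adjusted p = 0.49) made up the 4.

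**Figure D4:**
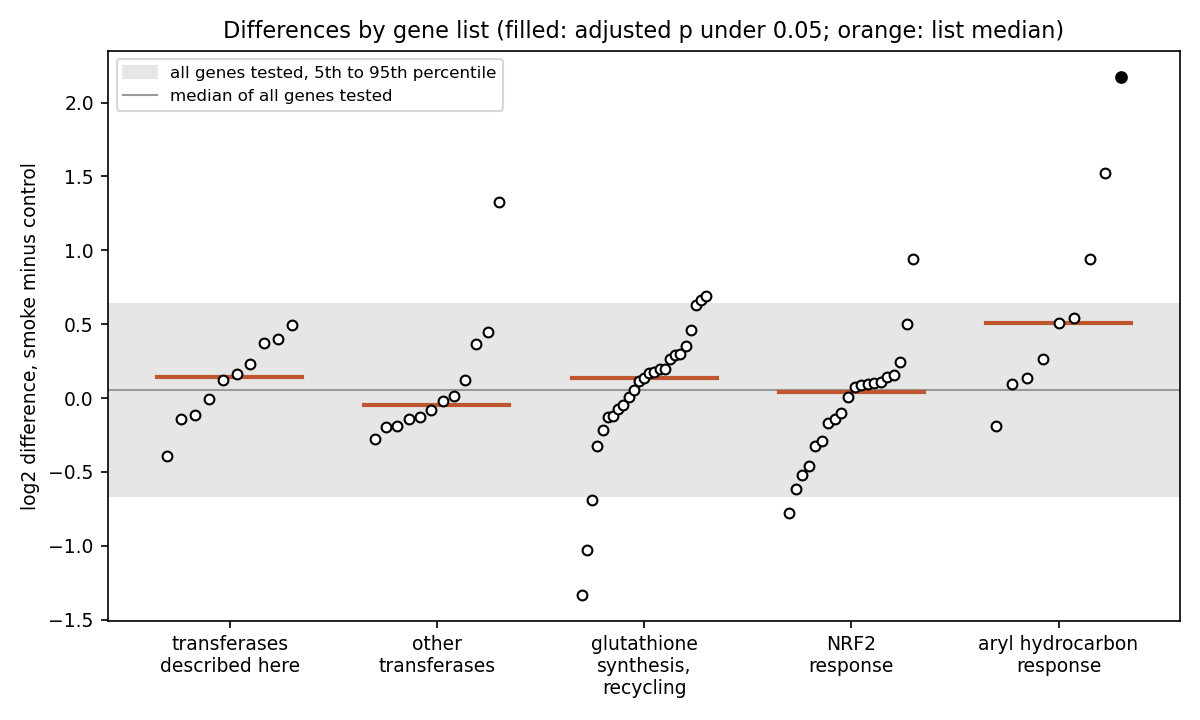
Smoke minus control difference in log2 units of each tested gene in the list of 10 transferases and in the 4 lists of other transferases, glutathione synthesis and recycling, NRF2 response and aryl hydrocarbon response genes, with 1 point per gene and a bar at the median. The medians are 0.14, -0.05, 0.14, 0.04 and 0.51 in that order, and Cyp1b1 at 2.18 is the 1 gene past the adjusted threshold.

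Cell type markers were read beside these results, since in whole lung fewer cells of a type and less RNA per cell cannot be told apart. No marker passed an adjusted p of 0.05 in any list. Club cells, the airway cells richest in transferases, had 8 of 9 markers tested. Beside 7617 positive of 13382 genes tested, 7 of these markers were positive and 1 negative. Their median was 0.17, with Scgb1a1 at 0.03 and Scgb3a2 at 0.16. Their summed intensity was 76938 to 111812 in control lungs and 75743 to 115521 in smoke lungs, lowest on smoke 1 and highest on smoke 5. Alveolar type 2 markers (8 tested, median -0.02, among them Sftpc at 0.04 and Sftpa1 at -0.08) summed to 54826 to 84176 in control lungs and 39072 to 86591 in smoke lungs, again lowest on smoke 1 and highest on smoke 5. The defining markers of lung were thus present on every array. Their sums of normalized values had the same lowest and highest lungs as the normalized Mgst1, Gstm2 and Gsta4 series. For Mgst1 the highest lung was another one in the values as deposited. These ends were not particular to club and type 2 cells. The fibroblast sum was also lowest on smoke 1 (49068) and highest on smoke 5 (74526), and the ciliated and macrophage sums were lowest on smoke 1. Smoke 1 was the lowest array for 22.2% of all tested probe sets. The part of these cells in the transferase series was not tested.

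Macrophage markers were negative for 7 of 7 (median -0.62), beside 5765 of 13382 genes tested, with Chil3 at -0.40 and Mpeg1 at -0.62. They summed to 17699 to 26162 in control lungs against 11431 to 19482 in smoke lungs. Ciliated cell markers (8 tested, median -0.09, Dynlrb2 0.22, Tppp3 -0.38) summed to 5837 to 9355 and 4760 to 9284. Alveolar type 1 markers (8 tested, median -0.12, Ager -0.01, Emp2 -0.18) summed to 66662 to 78176 and 57977 to 74900. Fibroblast markers (7 tested, median -0.16, Col3a1 -0.15, Inmt -0.16) summed to 58746 to 67585 and 49068 to 74526, and endothelial markers (7 tested, median -0.35, Cldn5 0.27, Cdh5 -0.10) to 27329 to 38714 and 20544 to 41811. These sums overlapped between the groups for each of these cell types.

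Tissue from outside the lung was also looked for, because mouse transferases are abundant in liver. Hepatocyte markers had 2 of 6 tested, Alb at 0.19 and Apoa2 at -0.29, with sums of 315 to 354 in control lungs and 268 to 505 in smoke lungs, the highest on smoke 1. Heart muscle markers (7 tested, median -0.29, Actc1 0.31, Myh6 -1.19) summed to 4297 to 8049 and 2578 to 12741, with the most on smoke 5, which was also the highest array for 9 of the 15 tested transferase probe sets, among them that of Gstp1, beside 12% of all tested probe sets. By gene, smoke 5 was the highest array for 5 of 10 transferases, beside 1723 of 13382 genes tested. Fat cell markers (3 tested, median -0.68, Fabp4 -0.95, Retn -0.21) summed to 1830 to 11634 and 1136 to 4569. Erythroid markers (2 tested, Alas2 -0.38, Slc4a1 0.74) summed to 3136 to 7187 and 3028 to 9133. The part of such tissue in the transferase levels was not tested.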

How the data were processed

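Each of 10 lungs was hybridised to 1 array, per the labels' protocols, and the authors deposited linear intensities, 1 for each probe set. Which program summarised the probes is not given in the sources used here. Because the median log2 value differed between arrays by more than 0.3, log2 values were quantile normalized, then floored at the 10th percentile of the table (15.8). The only value of 0 was first set to the smallest positive value. After removal of 64 control probe sets from 45101, those in the top 60% by mean level were tested (27022). In the platform annotation 34945 probe sets have 1 symbol, 932 several and 9160 none; a RefSeq symbol table for GRCm38.p6 changed 0. Smoke was compared with control, 4 against 6 lungs, by limma 3.58.1 in R 4.3.3 (lmFit, eBayes with trend, no covariates), two-sided, with Benjamini-Hochberg adjustment over all tested probe sets. Exact permutation tests used single probe sets. The number of arrays limits the precision.

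The 10 genes and all lists were chosen with earlier results of these data known. Named were all 10 genes, in each pathway list those past the threshold or else the 4 of smallest p, the 2 markers of highest mean per cell type, and the 3 genes most like the member of smallest p. Cyp1a1, Cyp2s1 and Nqo1 in the aryl hydrocarbon receptor list, and Gclm, were named beyond this rule after their values were seen. The script was tested on simulated data. Alternatives changed the normalization, floor, filter, array weights, covariates, probe set choice and lungs.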

Additional observations from a re-analysis of the deposited data

Results flagged for a closer look

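In groups of 4 to 6 lungs, the gap between an extreme lung and its nearest neighbour was divided by the range of the group, and 2 of 30 groups exceeded the 95% limit, where chance gives about 1 in 20. For Gstt1 the highest control lung, control 1 at 11.82 (log2), lay above the next at 11.45, a gap of 0.914 of the range against a limit of 0.829. For Gsta3 by 1423436_at the lowest smoke lung, smoke 1 at 3.98, which is the floor, lay under the next at 8.11, a gap of 0.645 of the range against a limit of 0.625.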

How the results depend on the processing

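With the representative probe sets, Gstp1 and Gstm5 (positive) and Gsto1 and Mgst3 (negative) kept their direction and stayed short of the adjusted threshold under every alternative run, Gstp1 with 0.35 to 0.68 over 25. Gstt1 stayed positive in 25 of 25, and the number of transferase probe sets past the threshold was 0 except for 1 with the replicate block (Gstt1, 0.62, adjusted p = 0.0445 in limma). That block uses lungs numbered 1 to 4 of each group and so leaves out smoke 5 and 6 as well. Same-numbered lungs deviated together with correlations of -0.07, 0.17, -0.06 and -0.05, and none of the 4 controls correlated best with its own number, so the numbers were not taken as pairs. The sign turned for Gsta4 (-0.36), Gstm1 (-0.10) and Gstm2 (-0.37) both with the block and without smoke 5 and 6. It turned for Mgst1 with array weights (0.20), without smoke 1 and 2 (0.26) and with the actin ratio (0.050) or Xist (0.037) as a covariate. The other probe set of Gsto1, 1416531_at, turned positive with array weights (0.34), without smoke 1 and 2 (0.43), with the actin ratio (0.030) and in some single omissions (0.19 without smoke 1). Leaving out 1 lung at a time gave -0.36 to 0.081 for Gsta3, -0.41 to 0.50 for Gsta4, -0.10 to 0.45 for Gstm2 and -0.17 to 0.18 for Mgst1, and without a change of sign 0.16 to 0.64 for Gstm1, 0.13 to 0.29 for Gstm5 and -0.24 to -0.078 for Gsto1. The count of all genes past the threshold, 97 with 3 higher, was 183 with array weights (41 higher), 788 with the block (444), 742 without smoke 5 and 6 (418) and 371 with the actin ratio (151), and 59 to 104 with 1 lung left out (59 without control 2, 62 without control 3). Of the aryl hydrocarbon receptor list 0 passed with no filter, 2 with array weights, the block, Xist or without smoke 5 and 6, 3 with the actin ratio, and 0 to 2 with 1 lung left out. Of the glutathione list 1 passed with array weights and 2 with the block, without smoke 5 and 6 or with the actin ratio. Of the NRF2 list 2 passed with the block and 1 without smoke 5 and 6, all on the lower side, whereas with array weights or the actin ratio 1 passed, on the higher side. The cause of these changes was not tested. Dim values have no stated background here. With no floor the difference of Gsta3 by 1423436_at was -0.43, and with a floor at the 25th percentile it was 0.12.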
